A study of Homo sapiens with 12 samples.

Results

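The course from day 7 to day 19 of hepatic differentiation was followed in cells kept with triiodothyronine (T3), from the 4 of 12 libraries that carry this hormone. All libraries derive from H9, a single established line of human embryonic stem cells, and total RNA was sequenced. The comparison sets 2 libraries of day 19 cells with 30 nM T3, labelled hepatocytes, against 2 libraries of day 7 cells with 30 nM T3, labelled hepatoblasts. The reference course is the same pair of days in cells given 0.1% DMSO, with 2 libraries a day, and the remaining 4 libraries held cells with 30 nM thyroxine (T4). The labels give neither the day on which hormone was added nor its vehicle. Nor do they tell whether replicates were grown as separate cultures. The p-values below therefore rest on the spread between 2 libraries a group, a spread that could be technical. The labelled tissue is liver, although every library comes from a line grown in a dish.

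In liver development, definitive endoderm is specified under factors of the FOXA, GATA and SOX families and becomes hepatoblasts, which express alpha-fetoprotein (AFP) and the nuclear receptor HNF4A. Hepatocytes then switch on albumin, clotting and complement factors, apolipoproteins, the urea cycle and gluconeogenesis, while the pluripotency network and proliferation recede. T3 acts through the nuclear receptors encoded by THRA and THRB. The deiodinases DIO1 and DIO2 make T3 from T4, and DIO3 inactivates both hormones.

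The 4 T3 libraries held 18511479 to 18809083 counts each, and levels are given as counts per 1000000 after TMM scaling (CPM). Replicates differed by more than sampling noise at both days, and by more at day 19, where the chi-square per gene between the T3 replicates was 8.62 against 2.10 at day 7. Several lists carried this spread mostly in 1 direction. In the day 19 T3 libraries, replicate 2 was the higher for 22 of 27 genes of plasma carriers and apolipoproteins and for 27 of 32 genes of coagulation and protease inhibitors, against 48.1% of all genes. The same held for 23 of 25 genes of oxidative phosphorylation, 19 of 22 of fatty acid oxidation and 17 of 20 of stellate and smooth muscle cells. Complement genes were less skewed, with replicate 2 the higher for 11 of 18. Replicate 2 was the lower for all but 2 of 22 genes of the stress response. In bulk RNA, fewer cells of a type and less RNA per cell cannot be told apart.

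With T3, 13227 of 18101 genes tested changed from day 7 to day 19 at an adjusted p of at most 0.05 (73.1%, edgeR's quasi-likelihood test with Benjamini-Hochberg adjustment). Of all genes, 35.2% were higher and 37.9% lower at day 19. Such a share leaves little room for a list of genes to stand out by a count alone, so every count below is to be read against it, and against the 72.4% called in the DMSO course, 37.6% higher and 34.9% lower. The libraries of the 2 days did not overlap for 85.8% of genes. The deposited FPKM values are scaled to transcript length and library size, and were used without TMM scaling. On them the share of calls that were higher was 35.4% with T3 in place of 48.1%. With DMSO that share was 33.1% in place of 51.9%. The median change with T3 moved from -0.06 to -0.33 on the log2 scale, so small rises rest on the scaling.

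The T3 course followed much of the DMSO course. Of 3572 genes at least 2-fold higher at day 19 in DMSO (19.7% of those tested), 80.9% were also higher with T3, 158 were lower, and 525 were not called. Of 2499 genes at least 2-fold lower in DMSO (13.8%), 87.4% were also lower with T3, 27 were higher, and 288 were not called. Genes at least 2-fold higher in both courses numbered 2441, which is 68.3% of the DMSO list and 72.0% of the T3 list. Those at least 2-fold lower in both numbered 1836, or 73.5% and 61.2% of the lists. At least 2-fold higher with T3 were 18.7% of all genes, and 16.6% were at least 2-fold lower. The courses share no library, and the log2 changes correlated with Pearson's r = 0.789 across 18101 genes, which are not independent replicates.

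The size of the change nevertheless differed between T3 and DMSO for 6873 genes (38.0%), with 17.1% of genes moving more positively and 20.9% more negatively with T3. This is the interaction of day and treatment in the same fit, called the difference of courses below. Among genes at least 2-fold higher in DMSO and also higher with T3, 825 rose less with T3, 632 rose more, and 1432 had no called difference. On the FPKM values 57.8% of the called differences were positive, against 45.0% on counts, so the balance of the 2 directions rests on the scaling.

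**Figure D1:**
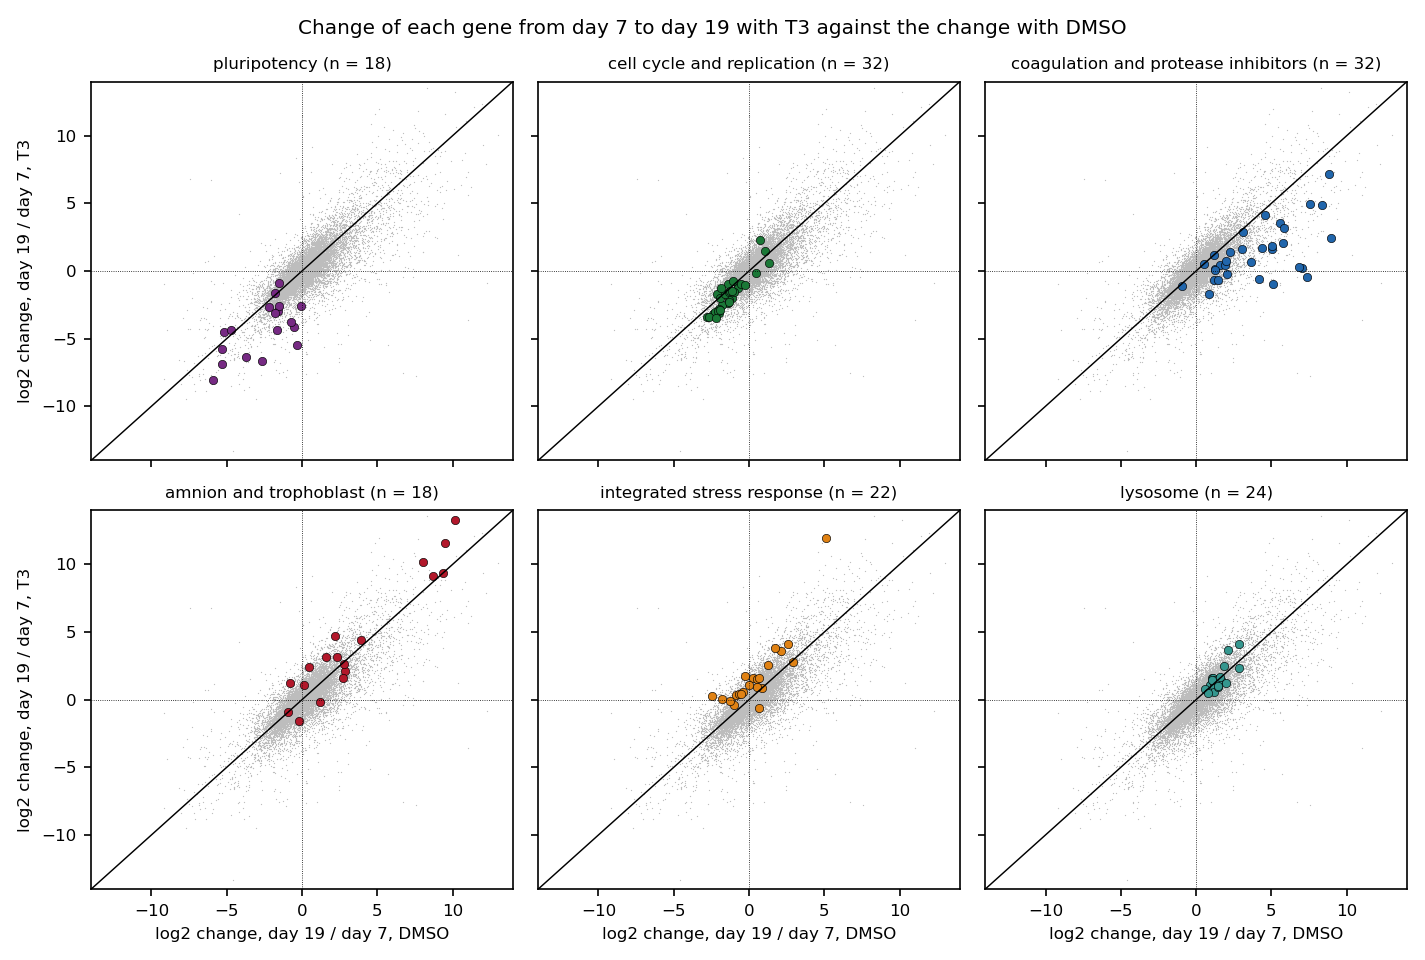
Fitted log2 change of each gene from day 7 to day 19 with T3 (vertical axis) against the change with DMSO (horizontal axis). Grey points are all 18101 genes tested, coloured points the members of 6 lists, and the diagonal marks equal change. All 24 lysosome genes are higher at day 19 in both courses, 23 of 32 coagulation genes have a called difference below the diagonal, and 19 of 22 stress-response genes one above it.

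**Figure D2:**
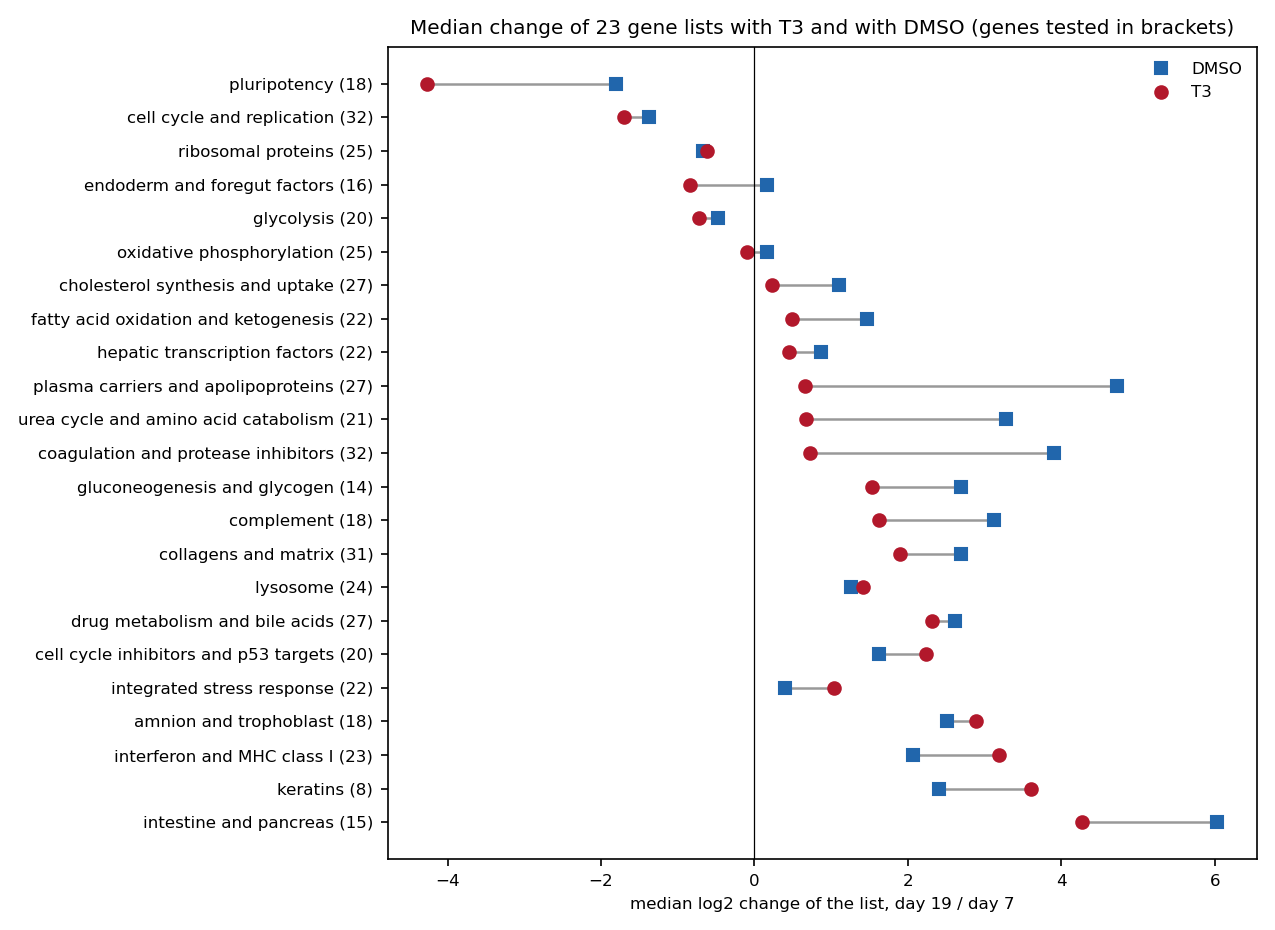
Median log2 change from day 7 to day 19 of 23 gene lists with T3 (red circles) and with DMSO (blue squares), with genes at 0 in a group set at their bound. The widest gaps are those of plasma carriers (0.65 with T3, 4.72 with DMSO) and coagulation factors (0.73 and 3.91).

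Loss of the pluripotency network proceeded with T3 and started from a higher level. Every one of 18 pluripotency genes tested, of 19 listed, fell from day 7 to day 19, with a median log2 change of -4.26 against -0.06 over all genes. In DMSO 15 of 18 fell, with a median of -1.80. The summed level of the list fell from 3879 and 3842 to 360.3 and 329.7 CPM with T3. With DMSO it fell from 1954 and 1979 to 246.4 and 231.9 CPM, so the sum was higher with T3 at both days. POU5F1, the core transcription factor of pluripotent cells, went from 585 and 568 to 4.61 and 5.0 CPM, a log2 change of -6.90 ± 0.10 (SE, adjusted p = 6.6e-16). Its DMSO libraries went from 168 and 176 to 4.24 and 4.43 CPM. The days thus lay far apart in both courses and ended at like levels, while the day 7 level was higher with T3, and the difference of courses was -1.59 (adjusted p = 7.8e-06).

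NANOG, another core factor, went from 19.1 and 20.2 to 1.5 and 1.34 CPM with T3 (log2 -3.79) and from 1.64 and 2.12 to 1.39 and 0.85 CPM with DMSO (log2 -0.74). SOX2, shared by pluripotent and neural cells, fell by 5.77 with T3 and by 5.30 with DMSO on the log2 scale, and that difference was not called (adjusted p = 0.18), except without day 19 T3 replicate 2, at -0.80. DNMT3B, the de novo DNA methyltransferase of early embryonic cells, fell from 617 and 606 to 84 and 69.9 CPM. Its fall and that of DPPA4, a chromatin protein of pluripotent cells, were larger than in DMSO, with differences of courses of -1.40 and -1.34. ESRG, a long noncoding RNA of stem cells, fell from 509 and 496 to 25.6 and 22.5 CPM (difference -2.75). The direction was the same for all of these genes, and the larger falls with T3 were of genes that stood higher at day 7.

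LIN28A, an RNA-binding protein of embryonic cells that blocks let-7 maturation, fell from 1147 and 1110 to 49.9 and 49 CPM, which was less than in DMSO (-4.51 against -5.17, adjusted p of the difference = 2.2e-05). Among 9 such oncofetal regulators 6 fell and 2 rose. ARID3A, a DNA-binding protein of fetal tissues, rose from 99.8 and 91.5 to 588 and 432 CPM, and by more than in DMSO (difference 1.08 (adjusted p = 0.00021)). HMGA2, a fetal chromatin protein, stood at 78.9 and 82.2 CPM at day 7 and 81.9 and 82.5 CPM at day 19 with T3, where it was not called on counts but was on the FPKM values (-0.25), while it rose in DMSO by 1.38 on the log2 scale.

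Proliferation genes fell and cell cycle inhibitors rose with T3. Of 32 cell cycle and replication genes 28 fell and 3 rose, with a median of -1.70 (DMSO 28 and 4, median -1.37). MKI67, a marker of cycling cells, went from 158 and 150.2 to 20.8 and 19.6 CPM, a log2 change of -2.93 against -2.06 in DMSO. PLK1, a mitotic kinase, fell from 111 and 113 to 9.46 and 10.5 CPM (difference -1.29 (adjusted p = 2.4e-07)). CCNA2, the cyclin of S and G2 phase, fell from 109 and 106 to 12.6 and 12.4 CPM (difference -1.13). The 2 days were wide apart for each of these genes. Of 32 members 21 moved more negatively than in DMSO and 6 more positively. The summed level of the list went from 3194 and 3182 to 1367 and 1348 CPM with T3. With DMSO it went from 2518 and 2520 to 1267 and 1267 CPM, so the larger fall with T3 was from a higher day 7 level. CCNE1, the cyclin that starts S phase, went the other way, from 35.4 and 37.1 to 202 and 159 CPM, and rose more than in DMSO (difference 1.56).

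CDKN1A, the p21 inhibitor of cyclin-dependent kinases, rose from 22 and 22.2 to 1500 and 1461 CPM with T3 (log2 6.07 ± 0.078 (SE, adjusted p = 3.5e-16)) and from 11 and 12 to 609 and 651 CPM with DMSO. The course differed by only 0.29 on the log2 scale (adjusted p = 0.046), a call that was lost under 8 alternatives. Among them were leaving out either day 7 T3 library, day 19 T3 replicate 1, either day 7 DMSO library or day 19 DMSO replicate 1 (0.23 to 0.35). CDKN2B, the p15 inhibitor, rose from 0.539 and 0.685 to 48.4 and 50.7 CPM (difference 1.54), and GADD45G, a growth arrest gene, from 10.4 and 8.56 to 239.6 and 197 CPM (difference 1.84). CDKN1C, the imprinted p57 inhibitor, rose by 2.38 with T3 and 2.0 with DMSO. In all, 18 of 20 inhibitors and p53 targets rose with T3, and 12 of them had a more positive course than in DMSO.

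The liver transcription factors split with T3. Of 22 tested 11 rose and 5 fell, against 14 and 5 in DMSO. CEBPA, which drives hepatocyte maturation, rose from 59.9 and 57.1 to 617 and 536 CPM with T3. That was a log2 change of 3.30 beside 3.32 in DMSO, and the 95% interval of the difference ran from -0.22 to 0.19. HNF4A, the central regulator of hepatocyte genes, fell from 246 and 229.5 to 53.9 and 66.2 CPM (log2 -1.99 ± 0.091 (SE, adjusted p = 5.1e-11)). In DMSO it fell from 341 and 342 to 241 and 224 CPM, so it stood lowest at day 19 with T3 among these 4 groups (difference -1.43 (adjusted p = 5.2e-07)).

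FOXA3, a forkhead factor of liver and gut, fell by 1.04 on the log2 scale with T3, from 24 and 22.6 to 11.6 and 11 CPM, and rose by 0.80 with DMSO. CREB3L3, a factor of fasting metabolism made in liver, rose with both, by 2.29 and 3.67 (adjusted p of the difference = 1.1e-06). Moving more positively with T3 were CEBPB, a factor of acute phase and stress responses (30.1 and 26.8 to 535 and 431 CPM, difference 1.49), and ESRRA, a factor of mitochondrial metabolism (difference 0.72). TBX3, a factor of hepatoblast expansion that other epithelia also use, turned direction. It went from 128 and 134 to 454 and 355 CPM with T3 and from 201 and 198 to 103 and 92 CPM with DMSO, a difference of 2.65 ± 0.13 (SE, adjusted p = 3.3e-09).

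The earlier endoderm factors SOX17 and FOXA2 fell in both courses. SOX17, of definitive endoderm, went from 69 and 68 to 7.25 and 8.73 CPM, a fall of 3.10 beside 2.91 in DMSO (adjusted p of the difference = 0.25). For FOXA2, a pioneer factor of endoderm, the log2 change was -0.94 and -1.18, with an interval of the difference of 0.01 to 0.48. That difference was not called, but it was with DESeq2's size factors (0.29), on the FPKM values (0.35) and without day 19 T3 replicate 1 (0.38). GATA6, another factor of early endoderm, rose from 58.2 and 55.7 to 112 and 129 CPM and more than in DMSO (difference 0.56).

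Plasma proteins changed far less with T3 than with DMSO. Of 27 carriers and apolipoproteins tested, of 28 listed, 26 rose in DMSO with a median of 4.72. With T3 13 rose, 7 fell and 7 were not called, with a median of 0.65. The course was more negative with T3 for 24 and more positive for 0. The summed level of the list was 6298 and 6035 CPM at day 7 and 7423 and 9303 CPM at day 19 with T3, beside 96110 and 102300 CPM at day 19 with DMSO.

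AFP, the fetal counterpart of albumin, rose from 91.7 and 89.3 to 430.0 and 642 CPM with T3, a log2 change of 2.57 ± 0.14 (SE, adjusted p = 3.8e-10). With DMSO it rose from 136 and 131 to 32930 and 35470 CPM, a log2 change of 8.0, so the courses differed by -5.44 ± 0.20 (SE, adjusted p = 1.9e-10). Albumin itself (ALB) was low. It stood at 0.735 and 0.783 CPM at day 7 and 0.898 and 1.57 CPM at day 19 with T3 (log2 0.70, adjusted p = 0.071), and rose from 1.3 and 0.962 to 17.8 and 20.8 CPM with DMSO. Without day 19 T3 replicate 1 the T3 change of ALB was 1.04 and was called (adjusted p = 0.015). The low level of ALB at day 19 in both courses goes against the label of hepatocytes as far as this marker is concerned.

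APOA4, an apolipoprotein of chylomicrons and of high-density lipoprotein, rose strongly with T3, from 38.7 and 37.9 to 2169 and 2552 CPM (log2 5.95), although less than with DMSO (log2 9.58). APOA1, the main protein of high-density lipoprotein, turned direction. It fell from 1774 and 1646 to 760.2 and 975 CPM with T3 (log2 -0.98 (adjusted p = 1.3e-07)) and rose from 1981 and 2041 to 15070 and 16380 CPM with DMSO. TTR, which carries thyroid hormone and retinol-binding protein in plasma, went from 314 and 328 to 213 and 307 CPM with T3 and from 547 and 539 to 2557 and 2915 CPM with DMSO. The T3 change of TTR was -0.30 on the log2 scale and its call was lost under 6 alternatives, among them leaving out either day 7 T3 library or day 19 T3 replicate 1 (-0.07 without the last), while the difference of -2.64 had an adjusted p of 2.6e-08. APOM, a small lipocalin of lipoproteins, fell in both courses and further with T3 (-3.26 against -1.07).

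Coagulation factors and protease inhibitors showed the same split. Of 32 genes 18 rose and 4 fell with T3 (median 0.73), against 31 and 1 with DMSO (median 3.91), and 23 had a more negative course. The fibrinogen chain gene FGA proceeded with T3, from 264 and 253 to 1608 and 2223 CPM. Its log2 change was 2.89, beside 3.14 in DMSO, and the interval of the difference was -0.56 to 0.06, although without day 19 T3 replicate 2 the difference was called at -0.50. The gene of the gamma chain, FGG, rose from 30.6 and 32.7 to 318 and 422 CPM, and by less than in DMSO (difference -2.04 (adjusted p = 2.3e-07)).

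SERPINA1, alpha-1-antitrypsin, rose from 37.7 and 40.5 to 138 and 195 CPM with T3 and from 61.5 and 62.6 to 3157 and 3588 CPM with DMSO (difference -3.67 ± 0.17 (SE, adjusted p = 1.9e-09)). PLG, the precursor of the clot-dissolving protease plasmin, stood at 2.3 and 1.96 CPM at day 7 and 1.14 and 2.04 CPM at day 19 with T3, where its days overlapped and it was not called. With DMSO it rose from 2.94 and 3.03 to 467 and 508 CPM, and the difference of -7.77 ± 0.31 (SE, adjusted p = 3.9e-10) was among the widest of the list. SERPIND1, heparin cofactor II, likewise stood at 1.37 and 1.37 CPM at day 7 and 1.2 and 2.21 CPM at day 19 and was not called, against a log2 rise of 6.86 with DMSO. Both T3 changes were called when 1 library was left out, PLG at -0.90 without day 19 T3 replicate 2 (and at -0.56 on the FPKM values) and SERPIND1 at 0.69 without replicate 1. A2M, a broad protease inhibitor, rose in both, by 4.97 and 7.54.

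The promoters of AFP, PLG and FGA are shown because these genes share a match to the same liver motif and yet took different courses with T3. HNF1 factors bind a palindrome with the arm GTTAAT, and the motif searched was GTTAAT followed by any base and ATT, on both strands in the 250 bases before each start site of the RefSeq promoter table (GRCh38.p14). It lay in a promoter of 0.366% of 27305 genes (0.296% of 35116 promoters). In the list of plasma carriers 1 of 21 genes with a promoter in the table had it (AFP), and in the coagulation list 3 of 27 did (FGA, F13B and PLG). Capitals mark the match. The AFP stretch is chr4:73435971-73436220 on the plus strand, that of PLG chr6:160701994-160702243 on the plus strand, and that of FGA chr4:154590743-154590992 on the minus strand, all written 5′ to 3′ along the gene and ending at the base before the start site.
AFP: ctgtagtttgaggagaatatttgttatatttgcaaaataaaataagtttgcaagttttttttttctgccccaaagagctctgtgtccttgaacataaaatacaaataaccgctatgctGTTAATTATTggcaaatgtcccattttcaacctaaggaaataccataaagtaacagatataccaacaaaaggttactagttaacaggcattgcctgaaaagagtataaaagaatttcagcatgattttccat
PLG: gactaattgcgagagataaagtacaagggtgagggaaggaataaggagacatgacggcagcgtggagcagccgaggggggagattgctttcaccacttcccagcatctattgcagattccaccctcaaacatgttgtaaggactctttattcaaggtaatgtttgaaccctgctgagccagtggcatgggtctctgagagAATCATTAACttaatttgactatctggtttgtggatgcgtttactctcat
FGA: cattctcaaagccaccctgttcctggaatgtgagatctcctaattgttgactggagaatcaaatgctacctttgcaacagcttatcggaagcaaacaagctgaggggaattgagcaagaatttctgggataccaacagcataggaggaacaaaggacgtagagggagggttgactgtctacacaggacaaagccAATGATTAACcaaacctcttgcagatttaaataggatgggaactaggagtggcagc
The match starts 132 bases before the start site in AFP, 50 in PLG and 56 in FGA. AFP rose less with T3 than with DMSO, PLG was not called with T3, and the course of FGA had no called difference. A match of letters is a description of the sequence and not a site of binding.

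**Figure D3:**
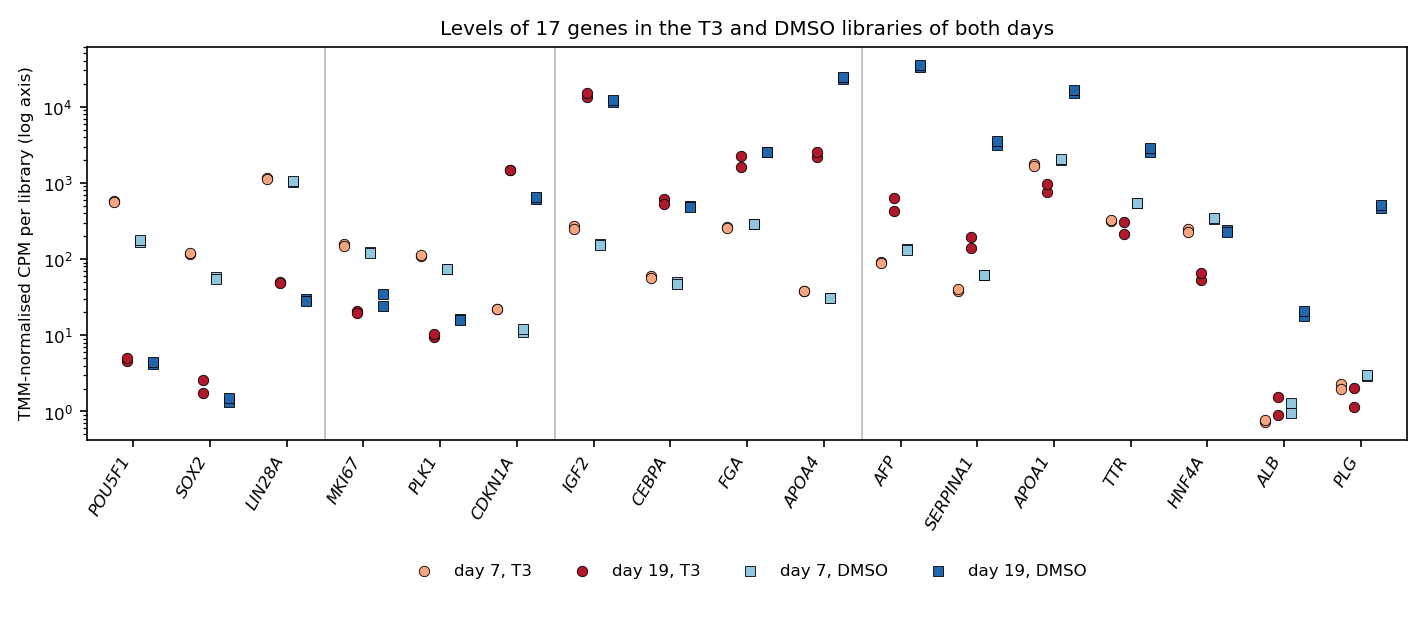
Levels of 17 genes in each library on a log axis, as TMM-normalised CPM, with 2 points a group (circles T3, squares DMSO; light day 7, dark day 19). POU5F1 fell and CDKN1A rose in both courses, whereas APOA1, TTR, HNF4A, ALB and PLG at day 19 with T3 lay below the DMSO libraries of that day.

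Complement genes proceeded in part. With T3 14 of 18 rose and 0 fell, and 7 rose less than with DMSO or not at all. MBL2, the lectin that starts the lectin pathway, rose from 0.441 and 0.245 to 13.5 and 19.1 CPM (log2 5.55, DMSO 5.21, interval of the difference -0.90 to 1.57). C2, a protease of the classical pathway, rose by 2.48 and 2.37 (adjusted p of the difference = 0.79). C3, the central component, rose from 3.38 and 3.86 to 11.3 and 10.3 CPM with T3 against 1.54 and 1.68 to 68.9 and 64.9 CPM with DMSO (difference -3.80 (adjusted p = 4.0e-09)). C5, the precursor of the terminal pathway, rose by 0.65 against 3.77, a T3 call that was lost on the FPKM values.

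Genes of amino acid metabolism followed the DMSO course only in part, and most genes of glucose production rose, though at a reduced scale. Of 21 genes of the urea cycle and amino acid breakdown 11 rose and 6 fell with T3 (median 0.67), against 19 and 0 with DMSO (median 3.44). Of those 19 genes, 5 were called lower with T3. CPS1, the entry enzyme of the urea cycle, went from 20.3 and 23.1 to 12.6 and 18.6 CPM with T3, a log2 change of -0.47 whose call was lost without day 7 replicate 2 or day 19 replicate 1. With DMSO it rose from 24.4 and 25.5 to 272 and 269.6 CPM (difference -3.91 ± 0.18 (SE, adjusted p = 2.0e-09)). ASS1, the next enzyme but one of the cycle, fell from 52.7 and 53.7 to 29.7 and 32.3 CPM with T3 and rose by 1.27 with DMSO.

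TDO2, which opens tryptophan breakdown, rose from 0.098 and 0.196 to 3.71 and 5.41 CPM, by 4.90 beside 5.22 in DMSO (interval of the difference -2.17 to 1.53). MAT1A, the liver form of methionine adenosyltransferase, rose from 1.42 and 1.37 to 19.4 and 28 CPM and by less than in DMSO (difference -3.92). PCK1, the committed enzyme of gluconeogenesis, rose from 0.49 and 0.734 to 152 and 205 CPM (log2 8.17, DMSO 10.65). That difference was called (adjusted p = 0.0091) but was lost without day 7 T3 replicate 2. FBP1, fructose bisphosphatase, rose from 2.21 and 1.76 to 6.47 and 8.38 CPM with T3 and from 1.45 and 1.78 to 119 and 138 CPM with DMSO (difference -4.41). Of 14 genes of this group 10 rose with T3 and 11 had a more negative course than with DMSO.

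Glycolysis genes fell in number more than they rose, 15 against 5 of 20. LDHA, lactate dehydrogenase A, fell from 1031 and 1074 to 166 and 175 CPM and further than in DMSO (difference -1.34). ALDOC, an aldolase, fell from 112 and 109.9 to 28.9 and 37 CPM with T3 and rose by 0.98 with DMSO. PFKP and SLC2A1, a phosphofructokinase and the main glucose transporter of growing cells, rose by 1.77 and 1.79.

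Cholesterol synthesis rose less with T3. Of 27 genes 16 rose with a median of 0.23, whereas all 27 rose with DMSO with a median of 1.10. The course was more negative with T3 for 21 of them. MSMO1, a sterol oxidase of the pathway, rose from 126 and 132 to 182 and 216 CPM with T3 and from 136 and 143 to 923 and 1027 CPM with DMSO (difference -2.18 ± 0.11 (SE, adjusted p = 3.7e-09)). SQLE, squalene epoxidase, rose in both with no called difference (1.21 and 1.25, interval of the difference -0.23 to 0.15). ABCG1, a sterol exporter, rose more with T3, from 0.931 and 0.88 to 15.7 and 13.7 CPM (difference 2.18).

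Of 21 genes of fatty acid and triglyceride synthesis 11 rose and 6 fell with T3, and the course was more negative than with DMSO for 13 and more positive for 1. The lipid droplet coat PLIN2 rose from 81 and 85.5 to 1440 and 1431 CPM and by more than in DMSO (difference 0.52 (adjusted p = 8.8e-05)). DGAT2, which makes triglycerides in hepatocytes, fell from 26.7 and 25.2 to 13.2 and 18.7 CPM with T3 and rose from 30.8 and 29.9 to 419.5 and 417 CPM with DMSO (difference -4.49 ± 0.16 (SE, adjusted p = 1.3e-10)). CPT1A, the gate of mitochondrial fatty acid oxidation and a gene that T3 is known to induce in liver, rose from 12.1 and 12.6 to 92.1 and 99.4 CPM, by 2.95 beside 2.89 in DMSO (interval of the difference -0.26 to 0.38). HADH, a mitochondrial oxidation enzyme, stood at 49.9 and 53 CPM at day 7 and 44.2 and 48.2 CPM at day 19, was not called (called lower on the FPKM values, at -0.44), and rose by 1.59 with DMSO. In the list of oxidation and ketogenesis 15 of 22 rose with T3, and 13 had a more negative course.

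Many genes of drug and bile acid metabolism rose with T3. Of 27 genes 18 rose with a median of 2.32, beside 22 and 2.62 with DMSO. The course was more negative with T3 for 10 and more positive for 3, and the summed level at day 19 was 1738 and 2216 CPM with T3 and 4042 and 4186 CPM with DMSO. CYP1A1, the inducible aryl hydrocarbon hydroxylase, rose from 8.53 and 7.78 to 404 and 444 CPM (log2 5.70, DMSO 5.74, interval of the difference -0.28 to 0.19). SULT2A1, which sulphates bile acids and steroids, rose from 2.16 and 1.81 to 48 and 70.6 CPM. GSTA2, a glutathione transferase that shares sequence with GSTA1, rose from 41.9 and 42.7 to 445 and 701 CPM and by less than in DMSO (difference -0.91). CYP3A4, the main drug-oxidising enzyme of adult liver, remained low, at 0.147 and 0.0978 CPM at day 7 and 0.659 and 1.05 CPM at day 19. ABCC2, the bile canalicular export pump for conjugates, was not called with T3 (9.07 and 7.73 CPM at day 7 and 8.68 and 9.02 CPM at day 19) and rose by 2.07 with DMSO.

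IGF2, the fetal growth factor, was among the hepatoblast genes that proceeded. It rose from 274 and 252 to 13260 and 15200 CPM with T3 (log2 5.76 ± 0.083 (SE, adjusted p = 6.6e-16)) and from 157 and 152 to 11510 and 12360 CPM with DMSO, and the difference was -0.51. H19, the noncoding RNA of the same imprinted cluster, rose from 0.441 and 0.245 to 11 and 11.2 CPM. GPC3, a fetal liver proteoglycan, fell from 179 and 183 to 77.3 and 112 CPM with T3 and rose by 1.66 with DMSO (difference -2.60 (adjusted p = 2.0e-08)). Of 16 hepatoblast genes, 11 rose and 4 fell with T3, against 14 and 2 with DMSO.

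Most intestinal genes rose in both courses, and their part in the liver results was not tested. Of 15 genes tested 12 rose and 2 fell, with a median of 4.70, or 4.26 with genes at 0 set at their bound. With DMSO 13 rose, with a median of 6.03, and the course was more negative with T3 for 5 and more positive for 0. CDH17, the cadherin of intestinal epithelium, rose from 0.294 and 0.147 to 51.8 and 59.9 CPM (log2 7.94) beside 0.241 and 0.481 to 95.4 and 97.7 CPM with DMSO, and the interval of the difference, -1.85 to 1.66, was wide because day 7 was near 0. LCT, lactase, rose from 0.196 and 0.245 to 223 and 268 CPM with T3 and from 0.144 and 0.192 to 1538 and 1379 CPM with DMSO. Its difference of -2.94 was not called (adjusted p = 0.064). It was called with a replicate block, with only the libraries of the contrast, with DESeq2 and on the FPKM values. LGALS4, a galectin of the gut, rose by 4.70 against 7.43 (adjusted p of the difference = 0.00017). VIL1, villin of the brush border, was not called with T3 on counts (36.5 and 34.4 CPM at day 7 and 31.4 and 37.8 CPM at day 19) but was on the FPKM values (-0.33), and rose by 2.81 with DMSO. The summed level of the list at day 19 was 467 and 554 CPM with T3 and 2270 and 2121 CPM with DMSO, where LCT made up most of it.

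Matrix genes rose in both courses, with members on either side. Of 31 collagens and matrix genes 26 rose and 3 fell with T3 (median 1.90, DMSO 2.69). The course was more negative than with DMSO for 17 and more positive for 6. COL1A1, of fibrillar collagen, rose from 131 and 129 to 536 and 651 CPM with T3 and from 109 and 112 to 2443 and 2340 CPM with DMSO (difference -2.24 ± 0.11 (SE, adjusted p = 2.5e-09)). MMP2, a gelatinase, rose by 1.03 against 3.63. TIMP3, an inhibitor of matrix proteases, rose from 15.5 and 13.1 to 2592 and 2184 CPM with T3 and from 18.1 and 18.3 to 454 and 413 CPM with DMSO (difference 2.81 ± 0.14 (SE, adjusted p = 4.5e-09)).

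FBLN1, fibulin, rose in both courses with no called difference (2.86 and 2.97, interval of the difference -0.29 to 0.08), and VCAN, versican, fell in both, from 1105 and 1078 to 72.3 and 64.3 CPM. Stellate and smooth muscle genes split, with 11 higher and 7 lower of 20 with T3, against 11 and 4 with DMSO. Their difference of courses was negative for 6 and positive for 4. The contractile gene ACTA2 of these cells rose from 9.46 and 9.49 to 130.0 and 159 CPM, by 3.93 beside 3.87 (interval -0.32 to 0.43). PDGFRB, a receptor of the same cells, rose by 3.67, less than in DMSO (difference -0.97). VIM, the mesenchymal intermediate filament, fell by 0.69 with T3 (254 and 249 to 137 and 174 CPM) against a log2 change of -0.08 with DMSO. CDH2, N-cadherin, fell by 0.89 with T3, less than with DMSO (difference 0.41). EPCAM, the epithelial adhesion protein, rose by 0.41 with T3, a call that was lost on the FPKM values. It also rose less than with DMSO (difference -0.80).

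Genes of amnion and trophoblast, tissues that arise outside the embryo proper, rose strongly with T3 and often by more than with DMSO. Of 18 genes 15 rose and 3 fell with T3, against 14 and 2 with DMSO. The course was more positive with T3 for 9 and more negative for 4. The summed level rose from 1231 and 1207 to 10200 and 8945 CPM with T3, and reached 4306 and 3952 CPM with DMSO.

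CGA, the alpha subunit of chorionic gonadotropin and of the pituitary glycoprotein hormones, rose from 0.392 and 0.44 to 1441 and 1200 CPM with T3 and from 0.53 and 0.337 to 314 and 323 CPM with DMSO. The log2 change was 11.61 ± 0.15 (SE, adjusted p = 3.9e-16), and the difference of courses was 2.11 (adjusted p = 0.0057), lost without day 7 DMSO replicate 1. CYP19A1, the aromatase of placenta and ovary, rose from 0.441 and 0.342 to 501 and 426 CPM. Its difference of 2.16 was lost without either day 7 DMSO replicate. CGB5, a beta subunit gene of a family of near-identical copies, rose from 0.147 and 0.44 to 202 and 192 CPM with T3. Its difference of courses was 0.03 and was not called (adjusted p = 0.97), with values from -3.52 to 0.996 over the alternatives. Reads among the copies cannot be divided with certainty. All 3 genes were near 0 at day 7, so the size of their change rests on few counts there.

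GATA3, a factor of trophoblast and amnion, rose from 181 and 173 to 1055 and 863 CPM with T3 and from 181 and 171 to 262 and 226 CPM with DMSO (difference 1.97 ± 0.12 (SE, adjusted p = 2.4e-08)). TFAP2C, an AP-2 factor of trophoblast and early epithelium, went from 79 and 80.4 to 212 and 169 CPM with T3 and fell from 61.7 and 60.8 to 38.4 and 31 CPM with DMSO (difference 2.08 ± 0.15 (SE, adjusted p = 8.5e-08)). IGFBP3, an insulin-like growth factor binding protein that many tissues make, rose from 74.8 and 75.2 to 1606 and 1596 CPM (difference 0.49). VTCN1, an immune checkpoint protein of amnion and trophoblast, went from 107 and 109 to 90.7 and 96 CPM with T3, a fall whose call was lost with DESeq2, and rose by 1.2 in DMSO. HAND1, a factor of heart and of extraembryonic mesoderm and trophoblast, fell from 133 and 128 to 35.5 and 51.2 CPM with T3 (difference -1.41 (adjusted p = 5.1e-06)).

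The promoter of CGA is shown because the gene has one of the widest changes with T3 and holds a well-known pair of elements. TGACGTCA is the palindromic cAMP response element bound by CREB and related factors. It lay in a promoter of 2.03% of 27305 genes of the same table (1.65% of 35116 promoters), and in 1 of 16 amnion and trophoblast genes with a promoter there. The stretch is chr6:87095107-87095356 (GRCh38.p14) on the minus strand, with the matches in capitals.
CGA: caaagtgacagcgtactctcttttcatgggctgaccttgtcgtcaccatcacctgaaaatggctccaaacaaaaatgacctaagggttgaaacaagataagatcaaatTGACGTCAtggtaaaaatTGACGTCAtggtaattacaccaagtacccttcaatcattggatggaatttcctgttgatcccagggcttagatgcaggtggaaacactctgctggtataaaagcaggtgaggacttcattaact
The matches start 142 and 124 bases before the start site.

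Keratins, the filaments of epithelia, rose further with T3 than with DMSO. Of 8 tested 7 rose with T3, and for 7 the course was more positive than with DMSO. KRT18 rose from 617 and 607 to 3734 and 3392 CPM with T3 and from 663 and 645 to 1143 and 1223 CPM with DMSO (difference 1.69 ± 0.093 (SE, adjusted p = 8.7e-09)). Its partner KRT8 rose from 1877 and 1861 to 5720 and 5111 CPM with T3 and from 2037 and 2020 to 2247 and 2322 CPM with DMSO. KRT23, an acidic keratin, rose from 0.637 and 0.734 to 615 and 504 CPM (log2 9.66) against 6.62 with DMSO. KRT7, a keratin of bile duct, amnion and trophoblast, rose from 106 and 108 to 944 and 978 CPM. Bile duct and progenitor genes, a list that also holds KRT7, were 13 higher and 2 lower of 17 with T3. Their difference of courses was positive for 8 and negative for 5. SPP1, osteopontin, which bile duct cells also make, rose from 3.82 and 4.3 to 797 and 824 CPM (difference 1.49 (adjusted p = 5.2e-05)). CD24, a surface protein of progenitors, fell less than with DMSO (-0.49 against -1.44).

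The integrated stress response had, after the keratins, the greatest share of members of any list moving more positively with T3, 19 of 22, with 1 more negative. With T3 18 rose and 2 fell, with DMSO 12 and 9. This pathway lowers protein synthesis and induces ATF4 and its targets when amino acids are short or the endoplasmic reticulum is loaded. NUPR1, a stress-induced chromatin protein, rose from 0.147 and 0 to 322 and 318 CPM with T3 and from 0.241 and 0.192 to 7.33 and 8.2 CPM with DMSO. The ratio of day 19 to day 7 with T3 was 4356, with a 95% counting interval of 1490 to 21130, and the difference of courses was 6.84 (adjusted p = 0.00011).

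DDIT3, the CHOP factor of this response, rose from 17.4 and 18.2 to 67.4 and 53.4 CPM with T3 and went from 18.7 and 21.4 to 16.1 and 16.5 CPM with DMSO (difference 2.06 ± 0.15 (SE, adjusted p = 1.4e-07)). For CHAC1, a glutathione-degrading target of ATF4, the course was 28.8 and 27.4 to 37.8 and 30.5 CPM with T3 and 31 and 36.4 to 5.69 and 6.8 CPM with DMSO. The difference lay mostly in the DMSO fall (2.71 ± 0.18 (SE, adjusted p = 3.6e-08)), whereas the small T3 change (0.28) was lost without either day 7 T3 library or day 19 T3 replicate 1 (0.12 to 0.32) and was -0.013 on the FPKM values. PSAT1, of serine synthesis, held a like pattern, at 85.5 and 87.2 CPM at day 7 and 89.6 and 84.9 CPM at day 19 and not called with T3 on counts (-0.27 and called on the FPKM values), with a fall of 1.83 in DMSO. ATF3 and STC2, other stress-induced genes, rose from 17.5 and 16.1 to 229 and 187 CPM and from 34.2 and 32.8 to 202 and 189.8 CPM (differences 1.52 and 1.32).

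The CHAC1 promoter is shown as one that holds the ATF4 motif. ATF4 with a CEBP partner binds TGATGNAA, which lay on either strand in a promoter of 3.89% of 27305 genes (3.14% of 35116 promoters) and in 5 of 19 stress-response genes with a promoter in the table (ATF3, ASNS, CHAC1, CEBPG and FGF21). The stretch is chr15:40953221-40953470 (GRCh38.p14) on the plus strand, and capitals mark the match, which starts 209 bases before the start site.
CHAC1: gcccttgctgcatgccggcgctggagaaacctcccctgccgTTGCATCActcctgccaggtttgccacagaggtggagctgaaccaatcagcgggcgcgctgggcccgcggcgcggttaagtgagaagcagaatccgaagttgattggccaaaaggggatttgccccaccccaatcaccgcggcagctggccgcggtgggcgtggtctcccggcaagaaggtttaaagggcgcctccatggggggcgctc
These counts describe letters in a window and were not tested.

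**Figure D4:**
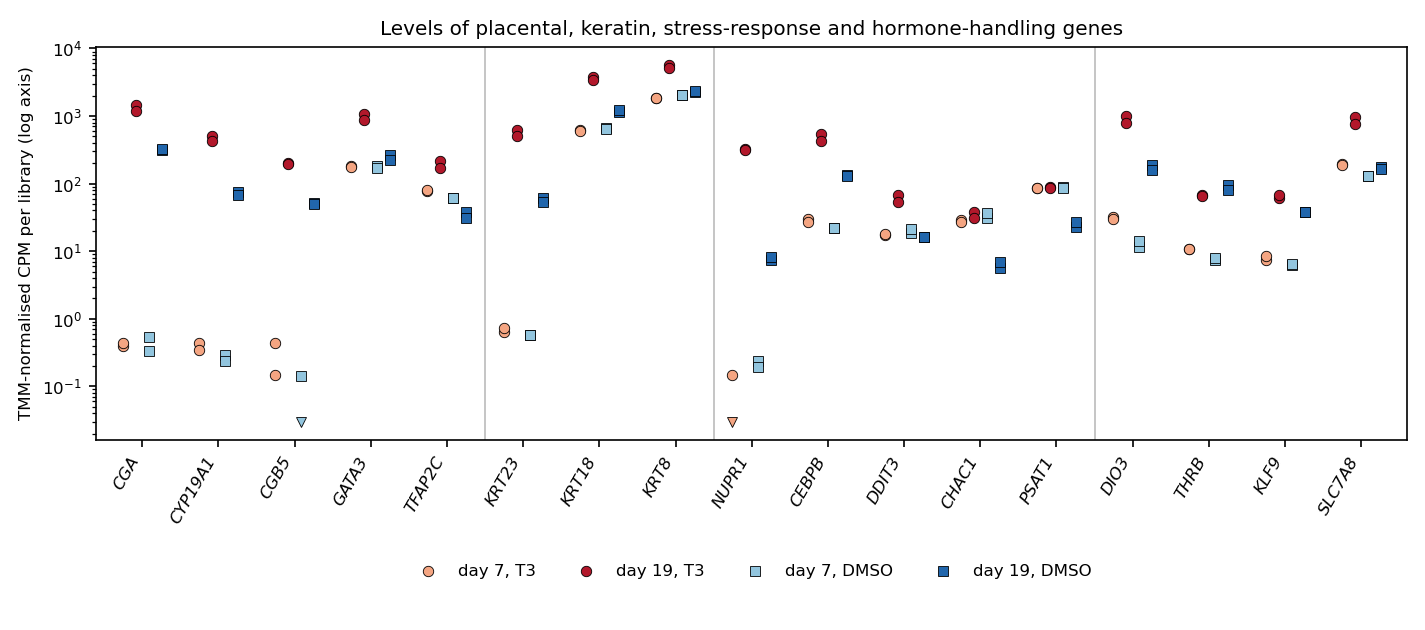
Levels of 17 placental, keratin, stress-response and hormone-handling genes in each library on a log axis, as TMM-normalised CPM, with 2 points a group and triangles for libraries at 0. CGA, CYP19A1, KRT23, NUPR1 and DIO3 reach higher day 19 levels with T3 than with DMSO as does SLC7A8, while CHAC1 and PSAT1 fell in DMSO.

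Antigen presentation, lysosomes and ribosomes moved the same way in both courses. All 23 interferon and MHC class I genes tested rose with T3 (median 3.19, DMSO 2.26), and 11 rose by more. In these genes day 19 T3 replicate 2 was the higher for all 23. TAP1, the peptide transporter that loads MHC class I, rose from 8.77 and 8.56 to 133 and 142 CPM (difference 0.86 (adjusted p = 8.5e-05)), and IFI6, an interferon-induced gene, from 1.72 and 1.81 to 284 and 327 CPM. All 24 lysosomal genes rose, with a median of 1.42 beside 1.25 in DMSO. CTSL, a cathepsin, rose from 34.5 and 35.7 to 506 and 409 CPM and by more than in DMSO (difference 1.62). Of 25 ribosomal protein genes 24 fell with T3 and 25 with DMSO (medians -0.61 and -0.67), and 23 had no called difference.

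Nuclear genes of oxidative phosphorylation diverged modestly. With T3 9 rose and 8 fell of 25, with DMSO 14 and 2. SDHA, of succinate dehydrogenase, rose from 80.4 and 81.9 to 179.6 and 182 CPM. ATP5F1A, of ATP synthase, fell from 646 and 665 to 462 and 488 CPM with T3 (difference -0.63 (adjusted p = 9.8e-06)). On the FPKM values only 2 of the list rose with T3.

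Genes that handle thyroid hormone changed in opposite directions. DIO3, which inactivates T3 and T4, rose from 32.5 and 30.1 to 984 and 789 CPM with T3 (log2 4.82 ± 0.12 (SE, adjusted p = 7.3e-14)) and from 11.7 and 14 to 190.1 and 159.5 CPM with DMSO, a difference of 1.06 (adjusted p = 0.00019). DIO2, which makes T3 from T4 inside cells, fell from 23.5 and 23 to 1.14 and 0.582 CPM (log2 -4.75). DIO1, the deiodinase of liver, rose from 3.73 and 3.18 to 24.1 and 36.8 CPM and by less than in DMSO (difference -1.03, lost without day 7 T3 replicate 1). On the log2 scale the inactivating enzyme thus rose most with T3, and the libraries of the 2 days did not overlap for any of the 3 deiodinases.

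THRB, the receptor of liver, rose from 10.8 and 10.7 to 66.9 and 65.6 CPM with T3 and from 7.37 and 7.79 to 95.6 and 79.2 CPM with DMSO (difference -0.90 (adjusted p = 0.00015)). THRA, the more widely expressed receptor, stood at 21.4 and 22.5 CPM at day 7 and 19 and 18.6 CPM at day 19 and was not called with T3 (log2 -0.22, adjusted p = 0.095), although on the FPKM values its change was -0.49 and called, whereas it rose by 0.70 with DMSO. SLC7A8, an amino acid transporter that carries thyroid hormone, rose from 193 and 189 to 984 and 767 CPM, more than with DMSO (difference 1.78), and so did the receptor coactivator gene NCOA3 (46.6 and 45.3 to 498 and 377 CPM, difference 1.83).

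Genes known to respond to T3 rose over the course in both arms. Of 22 tested 20 rose with T3 and 18 with DMSO (medians 1.93 and 2.23). The difference was positive for 5 and negative for 9. KLF9, a direct target of the receptor, rose from 7.5 and 8.56 to 61.2 and 68.5 CPM with T3 and from 6.31 and 6.4 to 38.2 and 37.5 CPM with DMSO (difference 0.44 (adjusted p = 0.053)). That difference was not called, but 5 alternatives called it, with 0.52 without day 19 T3 replicate 1. HR, a corepressor that the receptor induces in brain, rose from 1.27 and 1.71 to 12.1 and 11.1 CPM with T3 and by more with DMSO (difference -1.73 (adjusted p = 0.0013)). ANGPTL4, an inhibitor of lipoprotein lipase, rose from 11.8 and 10.5 to 107 and 113 CPM and by more than with DMSO (difference 1.23). TMPRSS6, a liver protease that lowers hepcidin, was not called with T3 (10.2 and 9.15 CPM at day 7 and 6.53 and 9.66 CPM at day 19) and rose by 3.55 with DMSO; without day 19 T3 replicate 2 its T3 change was called, at -0.57, as it was on the FPKM values, at -0.55. The consensus response element, 2 copies of AGGTCA in the same direction with 4 bases between them, searched on both strands, lay in 0 of 19 of these genes with a promoter in the table and in 0.0183% of all 27305 genes, within 250 bases, and nothing follows from that for the receptor.

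Markers of other cell types moved in both directions. Of 15 neural genes 3 rose and 9 fell with T3, and TUBB3 and MAP2, cytoskeletal genes of neurons, rose with T3 (151 and 148 to 255 and 217 CPM and 3.63 and 4.16 to 9.46 and 10.8 CPM) while they fell with DMSO (differences 1.95 and 3.01). Of 12 endothelial genes 6 rose and 2 fell. ENG, a TGF-beta coreceptor that trophoblast also makes, rose from 8.58 and 10.3 to 502 and 476 CPM (difference 2.33 ± 0.12 (SE, adjusted p = 6.2e-09)) and CDH5, VE-cadherin, from 5.78 and 6.31 to 78.9 and 61.2 CPM, whereas TEK, the angiopoietin receptor, fell from 6.13 and 6.26 to 0.898 and 1.05 CPM. Only 5 of 13 blood genes listed were tested, and 2 rose and 1 fell with T3. CD68, of macrophages and lysosomes, rose by 2.31, less than with DMSO (difference -1.69). PTPRC, CD14 and SPI1 of the same list were below the filter. At day 19 with T3 they stood at 0.12 and 0.349, 0.359 and 0.175, and 0.0599 and 0.0582 CPM. The part of such cells in the results above was not tested.

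The genes with the widest changes over the T3 course were taken by rule. Among the 12 largest rises were CGA and NUPR1, described above. HSD3B1, the placental form of a steroid dehydrogenase, went from 0.049 and 0 to 331 and 278 CPM, a ratio of 12420 with a 95% counting interval of 2229 to 490800 that rests on a single count at day 7. The endogenous retroviral envelope gene ERVV-2 went from 0.049 and 0.0978 to 339 and 248 CPM and LGALS16, a placental galectin, from 0 and 0.0489 to 72.6 and 62.8 CPM. MMP12, a macrophage elastase, and MUC13, an epithelial mucin, were at 0 in both day 7 libraries and were at least 473-fold and 392-fold higher at day 19. The bounds take 3 counts over the group in place of 0. OLR1, a receptor for oxidised lipoprotein, and IGFL2, a small secreted protein, were at least 163-fold and 142-fold higher. UGT1A4, UGT1A5 and MTPN complete the 12. The UGT1A genes share exons and reads, and MTPN is at 0 in 3 of these 4 groups, so these 3 values are uncertain. In the fit of all libraries only CGA and NUPR1 of the 12 had a called difference from the DMSO course. That difference was 0.38 for MMP12, 0.66 for MUC13, 0.19 for LGALS16, 3.09 for HSD3B1 and 4.17 for ERVV-2. Day 7 levels near 0 leave these differences imprecise, and on the FPKM values all of these but that of MMP12 were called.

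Among the 12 largest falls, FGF4, a growth factor of pluripotent cells, went from 2.25 and 2.54 to 0 and 0 CPM, at least 27.1-fold lower. VRTN, a gene of early mesoderm and pluripotent cells, fell from 51.4 and 51.4 to 0.0599 and 0.233 CPM (log2 -8.38), and DPYS, of pyrimidine breakdown in liver and kidney, from 26.2 and 24.6 to 0.12 and 0 CPM. CAMKV, a kinase-like protein of synapses, fell from 15.7 and 17.7 to 0 and 0.0582 CPM. CHST4, TSGA10IP, TMEM145, ST8SIA3, HES3, UNC80 and CDX4 fell to 0 in both day 19 libraries from day 7 levels between 1.76 and 5.2 CPM. The read-through gene TMX2-CTNND1 overlaps both genes of its name, and its value (78.4 and 58 to 0 and 0 CPM) is uncertain. Of these 12, DPYS, VRTN, CHST4 and TMEM145 had a called difference from the DMSO course (-5.11, -2.42, -6.44 and -4.93). The call of TMEM145 was lost under 12 alternatives. Without day 19 DMSO replicate 1 that of CHST4 was lost, and without replicate 2 that of VRTN. The others had no called difference in the fit of all libraries, although some alternatives called some of them.

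By the size of the difference of courses, the most positive were PZP, SENP3-EIF4A1, NUPR1, PLAAT4, TRIM63 and WAKMAR2. PLAAT4, a retinoid-induced phospholipid acyltransferase, went from 0.098 and 0.147 to 41.4 and 63.3 CPM with T3 and from 0.193 and 0.481 to 4.06 and 4.37 CPM with DMSO (difference 5.04 ± 0.98 (SE, adjusted p = 0.00092)). PZP, a protease inhibitor of pregnancy plasma, rose from 0 and 0.0489 to 5.03 and 4.19 CPM. Among the most negative, APOH, a phospholipid-binding plasma protein, stood at 0.049 and 0.147 CPM at day 7 and 0.299 and 0.174 CPM at day 19 with T3 and went from 0 and 0 to 8.18 and 8.99 CPM with DMSO. FETUB, a liver fetuin, was at 0 in both day 19 T3 libraries and reached 2.18 and 2.49 CPM with DMSO. MSR1, a macrophage scavenger receptor, fell to 0 with T3 from 1.08 and 1.56 CPM. CCDC180, FAM133DP and TRPC7-AS2 complete the 6 and are all at 0 in a group or overlap other genes, so their values are uncertain. The fitted sizes of CCDC180 and FAM133DP rest on a group at 0 and depend on the prior count. That of TRPC7-AS2 ran from -11.3 to -3.15 over the alternatives.

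The T4 course was set beside the T3 course after the other results had been seen. It differed from the T3 course for 834 genes (4.61%), with 1.77% of genes more positive and 2.84% more negative with T3. Plasma carriers and apolipoproteins included 13 of 27 members with a more negative course under T3, and their median change was 2.49 with T4. AFP rose by 4.69 on the log2 scale with T4 against 2.57 with T3 (adjusted p of the difference = 3.2e-05), reaching 1686 and 2023 CPM. CGA, by contrast, rose by 10.63 with T4 and 11.61 with T3 (adjusted p of the difference = 0.29). Leaving out any of the day 7 T3, day 19 T3 or day 7 T4 libraries, or day 19 T4 replicate 1, moved the count of 834 by over 1.5 times, to between 262 and 1734. Of the called differences 38.4% were positive on counts, 51.5% with DESeq2 and 22.3% on the FPKM values.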

How the data were processed

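Total RNA of 12 libraries was sequenced, and 1 transcript table per library was used. HISAT, Bowtie2 and RSEM are named in the submitters' processing notes, with hg38 as the build, while versions, annotation and strand are not given in the sources used here. Each deposited table holds RSEM's expected counts, estimated reads per transcript with shared reads divided, and FPKM, which the authors scaled to transcript length and library size. No transcript below 0.01 FPKM is listed, so a gene at 0 was unlisted.

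Expected counts were summed per gene and rounded (pandas 2.3.3, numpy 2.4.6, Python 3.11.15). Of 23922 genes 23801 matched a RefSeq symbol (GRCh38.p14) by Entrez number, and the 121 others held 0.103% to 0.145% of counts. Totals were 18363549 to 19306181 per library. edgeR 4.0.16 (R 4.3.3) used filterByExpr on 6 groups (18101 genes), TMM scaling, and a quasi-likelihood fit of all 12 libraries with a mean per group and 6 residual degrees of freedom. The shared fit overstates the spread of day 7 and understates that of day 19. Adjusted p-values are Benjamini-Hochberg over all genes, with calls at 0.05 or less. No set test was run, and list counts and medians are descriptions. A group at 0 takes a floor of 3 counts over its 2 libraries, 0.0734 CPM at day 7 and 0.0885 CPM at day 19 with T3. Floors and counting intervals (95%, Clopper-Pearson) cover counting error only.

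Alternatives were DESeq2 1.42.0 (size factors and test), limma 3.58.1 on log2(FPKM + 0.1), no filter, only the libraries of the contrast, a replicate block, each library left out, and the 10 most abundant genes left out. The models were tested on simulated data with a common spread for all genes and groups and few genes changed. That setting differs from these data, so the test cannot judge the TMM scaling or the shared spread here. Members, lists and the rule for named genes were chosen with earlier results of these data known, so no list is independent evidence. The rule takes the 12 largest and 12 smallest T3 changes and the 6 largest and 6 smallest differences of courses (called, at least 1 CPM in a group mean, T3 days not overlapping, no symbols starting LOC, LINC or MIR). It adds, from each list, the 4 smallest p-values of the T3 course and the 3 of the difference, and a fixed set of marker genes. A few genes that the rule names are not reported here. Of the 179 genes named and tested, 82 overlap another gene, and without strand their reads cannot be told apart with certainty.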

Additional observations from a re-analysis of the deposited data

Results flagged for a closer look

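The day 7 to day 19 change differed between T3 and DMSO for 6873 genes by the interaction of day and treatment. The values below are log2 differences, the T3 course minus the DMSO course, for the widest differences and the fixed marker genes whose difference passed the test. Other genes with a called difference stand with their values in the results above.

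The liver genes with a smaller or turned course under T3 were AFP at -5.44, APOH at -9.12, FETUB at -9.60, APOA1 at -3.95, CPS1 at -3.91, SERPINA1 at -3.67, ALB at -3.38, TTR at -2.64 and HNF4A at -1.43. Pluripotency genes gave -1.59 for POU5F1, -3.05 for NANOG and 0.66 for LIN28A. For the proliferation marker MKI67 the value was -0.88, and for the inhibitor CDKN1A it was 0.29.

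Mesenchymal genes gave -2.24 for COL1A1 and -0.61 for VIM. Among genes of hormone handling and response, THRA stood at -0.92, THRB at -0.90, DIO1 at -1.03, DIO3 at 1.06 and HR at -1.73. The remaining wide positive differences were PZP at 8.69, SENP3-EIF4A1 at 8.19, NUPR1 at 6.84, PLAAT4 at 5.05, TRIM63 at 4.89 and WAKMAR2 at 4.83. The remaining wide negative ones were CCDC180 at -15.35, FAM133DP at -14.28, TRPC7-AS2 at -7.98 and MSR1 at -7.92. Those of SENP3-EIF4A1, CCDC180, FAM133DP, FETUB, MSR1 and APOH rest on a group at 0, so their size depends on the prior count. The call of SENP3-EIF4A1 was lost with DESeq2 and on FPKM values, and that of TRIM63 under 6 alternatives, with a value of 1.32 without day 7 DMSO replicate 1. Without day 19 DMSO replicate 1 the calls of FAM133DP and TRPC7-AS2 were lost, at -7.57 and -3.15. The T3 and T4 courses differed for 834 genes by the same kind of test.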

How the results depend on the processing

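The T3 course gave 13227 called genes and the DMSO course 13112. The counts stayed within 1.5 times for the T3 course (11917 to 13817), the DMSO course (11825 to 14010) and their difference (5511 to 7139, against 6873) over all alternatives run. No label ties replicate numbers to a shared culture or day. Deviations of same-numbered libraries correlated across genes at r = 0.225 between the T3 days, -0.0123 between the DMSO days, 0.361 between T3 and DMSO at day 19 and -0.0238 at day 7, and not every pair of groups was over 0.1, so the numbers were not taken as pairs. A replicate block gave 13191 calls for T3, 13092 for DMSO and 6825 for the difference. Leaving out 1 library gave 12170 to 12598 T3 calls, 12029 to 12349 DMSO calls and 5721 to 6921 for the difference, the remaining library being assumed to vary like the other groups.
On log2(FPKM + 0.1), cardiac and kidney genes called higher fell to 3 from 6 and oxidative phosphorylation genes called higher to 2 from 9. The count of T3 against T4 differences, 834, ran from 262 to 1734 with single libraries left out. It was 262 to 342 without any 1 day 7 library of either hormone, 539 without day 19 T3 replicate 1, 1734 without day 19 T3 replicate 2 and 465 without day 19 T4 replicate 1. Of the 166 named genes called in the T3 course 8 lost the call under at least 1 alternative, and of the 135 with a called difference 15 did. CHAC1 turned to -0.013 with T3 on FPKM, and CPS1 and TTR lost their small T3 falls without day 19 T3 replicate 1. The causes of these shifts were not tested. Depth limits genes near 0.1 CPM, where 3 counts over a group's libraries are the floor.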

Other observations

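Signalling genes were not described above. Of 35 genes of WNT and FGF signalling 11 rose and 22 fell with T3. SFRP2, a secreted WNT inhibitor, turned direction, from 65.8 and 64.2 to 15 and 15.2 CPM with T3 and from 14.9 and 13.8 to 99.2 and 91.1 CPM with DMSO (difference -4.83 ± 0.10 (SE, adjusted p = 1.3e-12)). SFRP5, a foregut inhibitor of the same family, fell from 9.65 and 8.46 to 1.92 and 3.55 CPM and rose by 1.82 with DMSO. FGFR4, the liver receptor of FGF19, fell from 326 and 313 to 112 and 123 CPM with T3 and went from 399.7 and 409.6 to 468 and 474 CPM with DMSO (difference -1.66). WNT5A, a ligand of noncanonical signalling, rose by 4.25 and 3.90, a difference that was not called in the fit of all libraries (95% interval of the difference 0.05 to 0.64). It was called with DESeq2's size factors (0.40), on the FPKM values (0.52), and without day 7 T3 replicate 2 (0.47), day 7 DMSO replicate 1 (0.45) or day 19 DMSO replicate 1 (0.41). In TGF-beta signalling the receptor gene TGFBR2 rose from 6.13 and 6.6 to 106 and 89.1 CPM, more than with DMSO (difference 1.92 (adjusted p = 5.3e-06)), and GREM1, a BMP antagonist, from 1.08 and 0.783 to 7.96 and 10.2 CPM (difference 2.73). Hypoxia-response genes split, with 9 higher and 7 lower of 16. VEGFA, the vascular growth factor, rose by 2.25 against 1.17, and LOX, which cross-links collagen, by 1.33 against 4.83.

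A further 8 placental genes that no list held were chosen after their values had been seen, so they are given as values only. GCM1, the factor of syncytiotrophoblast formation, went from 0.637 and 0.293 to 60.5 and 48.3 CPM with T3 and from 0.241 and 0.433 to 9.09 and 7.59 CPM with DMSO. The fusogenic envelope genes ERVFRD-1 and ERVW-1 went from 0.392 and 0.489 to 486 and 374 CPM and from 7.25 and 6.41 to 175 and 145 CPM with T3, reaching 52.8 and 43.5 and 29.9 and 27 CPM with DMSO. PGF, placental growth factor, went from 17.6 and 16.2 to 852 and 672 CPM with T3 and reached 157 and 135 CPM with DMSO. HSD17B1, which makes oestradiol, went from 1.08 and 0.783 to 179.9 and 135 CPM, and the differentiation gene HOPX from 0.637 and 0.929 to 311 and 242 CPM. SDC1, a proteoglycan of syncytiotrophoblast and of hepatocytes, went from 24.7 and 22.6 to 769 and 671 CPM with T3 and from 19 and 17.5 to 640.4 and 602 CPM with DMSO. PAPPA, a placental protease, went from 6.57 and 6.6 to 45 and 50.2 CPM with T3 and reached the higher level of 72.6 and 58.3 CPM with DMSO.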
